A study of Mus musculus with 2 samples.

Results

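The proteasome genes described here were the 45 of 32285 genes whose symbols begin with Psma, Psmb, Psmc, Psmd or Psme, the prefixes of the core and regulatory particle genes. Of these, 43 were sorted into lists by role. They comprised 3 immunosubunits (Psmb8, Psmb9, Psmb10), 2 interferon-inducible activator genes (Psme1, Psme2), 31 constitutive core and regulatory subunits, 3 regulatory particle chaperones (Psmd5, Psmd9, Psmd10), 2 other activators (Psme3, Psme4) and 2 tissue-restricted subunits (Psma8, Psmb11). The prefix also took in Psmc3ip, a recombination factor that is not a subunit, and Psme2b, a near copy of Psme2 whose reads may be split with it, so its values are uncertain.

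The proteasome degrades ubiquitin-tagged proteins in the barrel of a 20S core, built from alpha rings of Psma products and beta rings of Psmb products, and capped by the 19S regulatory particle of Psmc ATPases and Psmd subunits. Psmb5, Psmb6 and Psmb7 encode the constitutive proteolytic subunits. Interferon gamma induces Psmb8, Psmb9 and Psmb10, which replace them in new particles and form the immunoproteasome, and also Psme1 and Psme2, which make the PA28 cap. Immunoproteasomes are known for trimming antigens into peptides that TAP transports for loading onto MHC class I, and dendritic cells and lymphocytes carry them at rest.

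Cells carrying CD45, the pan-leukocyte surface protein, were sorted from subcutaneous tumours of the mouse melanoma line B16F10 and sequenced in 2 droplet libraries from WT mice, 1 per group. The control library was labelled with transfer of untreated bone-marrow-derived macrophages (BMDMs), and the IL4 library with transfer of BMDMs treated with IL-4, a type 2 cytokine. The treatment protocol names IL-4-treated BMDMs for both libraries, so the labels conflict. Age, strain and the pooling of animals are not given in the sources used here, and no label tells transferred from host macrophages. With 1 library per group, no difference between groups has a replicate check, and every interval below is a 95% interval that covers counting error only.

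After filtering, 8937 control and 13762 IL4 barcodes remained, with medians of 9156.5 and 8213 UMIs, and 23 barcode sequences occurred in both libraries. Barcodes were gated by summed marker genes into 11 leukocyte types, and the 8 with at least 50 barcodes in each library were compared. These were macrophages (1427 control and 2149 IL4 barcodes), classical monocytes (2094 and 3481), type 1 conventional dendritic cells (cDC1, 152 and 161), type 2 conventional dendritic cells (cDC2, 560 and 638), mature migratory dendritic cells (mature DC, 262 and 527), T cells (327 and 590), NK cells (164 and 410) and neutrophils (262 and 114). The 10 macrophage markers summed to 12027 and 12383 CPM (UMIs scaled to a total of 1000000) in the macrophage gate, against 435 and 443 in the cDC1 gate and 473 and 562 in the mature DC gate. Of these markers, 9 also set the macrophage gate, so this contrast follows from the gating and does not measure the purity of the gates. Between 2.63% and 22.4% of a compared gate's barcodes lay near its limit, and 2012 control and 3304 IL4 barcodes with markers of more than 1 type were set apart as mixed.

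Psmb8 and Psmb9 flank Tap1, a chain of the peptide transporter, in the MHC region of chromosome 17. On mm10, Psmb9 lies at chr17:34181987-34187764 on the minus strand, Tap1 at chr17:34187553-34197225 and Psmb8 at chr17:34197721-34201454, both on the plus strand. The first pair overlaps by 212 bases, so reads from that stretch may be assigned to either gene where strand was not used, and 495 bases part Tap1 from Psmb8. Psme1 and Psme2 lie 5911 bases apart on chromosome 14, where Psmb5 (chr14:54614119-54618022) is 3410 bases from the thymic subunit gene Psmb11. Psmb10 is on chromosome 8 and Psmb6 at chr11:70525367-70527858.

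Stretches of the catalytic pair Psmb8 and Psmb5, and of Psmb6, are shown as the catalytic genes with a GAS or antioxidant motif within 250 bases before the start in the RefSeq table (build GRCm38.p6, 39 members matched). The whole Psmb8 window, its stretch included, lies in annotated Psmb8 exons of the GENCODE gene, which begins upstream of that RefSeq start, so for transcripts from there it is transcribed sequence. Capitals mark a GAS motif (TTCNNNGAA, the interferon gamma activated site) in the first and an antioxidant response element (TGACNNNGC, the site of the proteasome regulators NRF1 and NRF2) in the others, each written on the gene's own strand.
Psmb8, chr17:34198088-34198117, from -107 to -78: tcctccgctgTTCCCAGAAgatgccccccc
Psmb5, chr14:54618023-54618082, from -87 to -28: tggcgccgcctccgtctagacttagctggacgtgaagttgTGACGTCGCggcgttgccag
Psmb6, chr11:70525297-70525356, from -60 to -1: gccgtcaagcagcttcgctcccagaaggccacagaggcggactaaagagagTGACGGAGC
Both strands were searched, and matches of different motifs may overlap. GAS was found for 1 of the 5 inducible genes and 0 of the 25 constitutive genes with a window, against 8.13% of all genes. The antioxidant element was found for 0 of the 5 and for 4 of the 25 (Psmb5, Psmb6, Psmc6 and Psmd12), against 11.5%. The interferon-stimulated response element was found for 0 of the 5 and 2 of the 25, against 3.46%, and CCAAT for 1 of the 5 and 10 of the 25, against 37.5%. The Psmb9 window also lay wholly in annotated exons, those of Psmb9 and Tap1, and 139 of the 250 bases of the Psme1 window lay in exons. For these genes the search thus covered annotated exon sequence in whole or in part. No window was available for Psmb7. These counts rest on few genes and cannot tell whether the groups differ, which was not tested. Such matches describe letters in these windows and are no evidence of binding.

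Psmb8, the LMP7 subunit that takes the place of Psmb5, was highest in the cDC1 gate, at 1003 CPM in the control library (969.6 to 1037) and 1058 CPM in the IL4 library (1021 to 1096). The mature DC gate followed at 745 and 728 CPM, then T cells at 504 and 552 and cDC2 at 504 and 485. Monocytes held 419 and 449 CPM, NK cells 343 and 389, macrophages 351 and 368, and neutrophils 192 and 202. Both dendritic gates at the top were thus clear of all others in each library, while T cells and cDC2 in the control, and NK cells and macrophages in both libraries, had overlapping intervals.

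Psmb9, the LMP2 subunit that takes the place of Psmb6, had the steepest order among the 3 immunosubunits. It stood at 760.5 CPM in the control library and 649.6 CPM in the IL4 library in cDC1, 373 and 326 in mature DC, and 304 and 285 in T cells. NK cells had 204 and 208 CPM, cDC2 181 and 202, monocytes 168 and 189.9, macrophages 158 and 166, and neutrophils 92.3 and 72.8. The first 3 gates did not overlap with their neighbours in either library, and macrophages were the lowest apart from neutrophils.

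Psmb10, the MECL1 subunit that takes the place of Psmb7, had another order. Its level was 138 CPM in the control library and 144 CPM in the IL4 library in monocytes, 142 and 135 in macrophages, and 133 and 107 in NK cells. The cDC1 gate held 116 and 118 CPM, T cells 108 and 117, mature DC 119.8 and 102, cDC2 110.4 and 100.05, and neutrophils 52.4 and 44.8. Apart from neutrophils, the highest and lowest gates differed by 0.42 on the log2 scale (mean of the libraries), against 1.52 for Psmb8 and 2.12 for Psmb9.

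Psme1, the PA28 alpha chain, was highest in cDC1 at 675 CPM in the control library and 679.8 CPM in the IL4 library, with mature DC next at 560.5 and 541. The other gates apart from neutrophils lay between 277 and 329 CPM. Psme2, the PA28 beta chain, was highest in mature DC instead, at 867 CPM in the control library (837 to 898) and 861 in the IL4 library (837 to 885). It stood at 387 and 406 CPM in cDC1, 310.1 and 308 in T cells, 278 and 294 in monocytes, 278 and 282 in macrophages, and 221 and 238 in NK cells. The chains of PA28 thus peaked in different dendritic gates in each library.

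**Figure D1:**
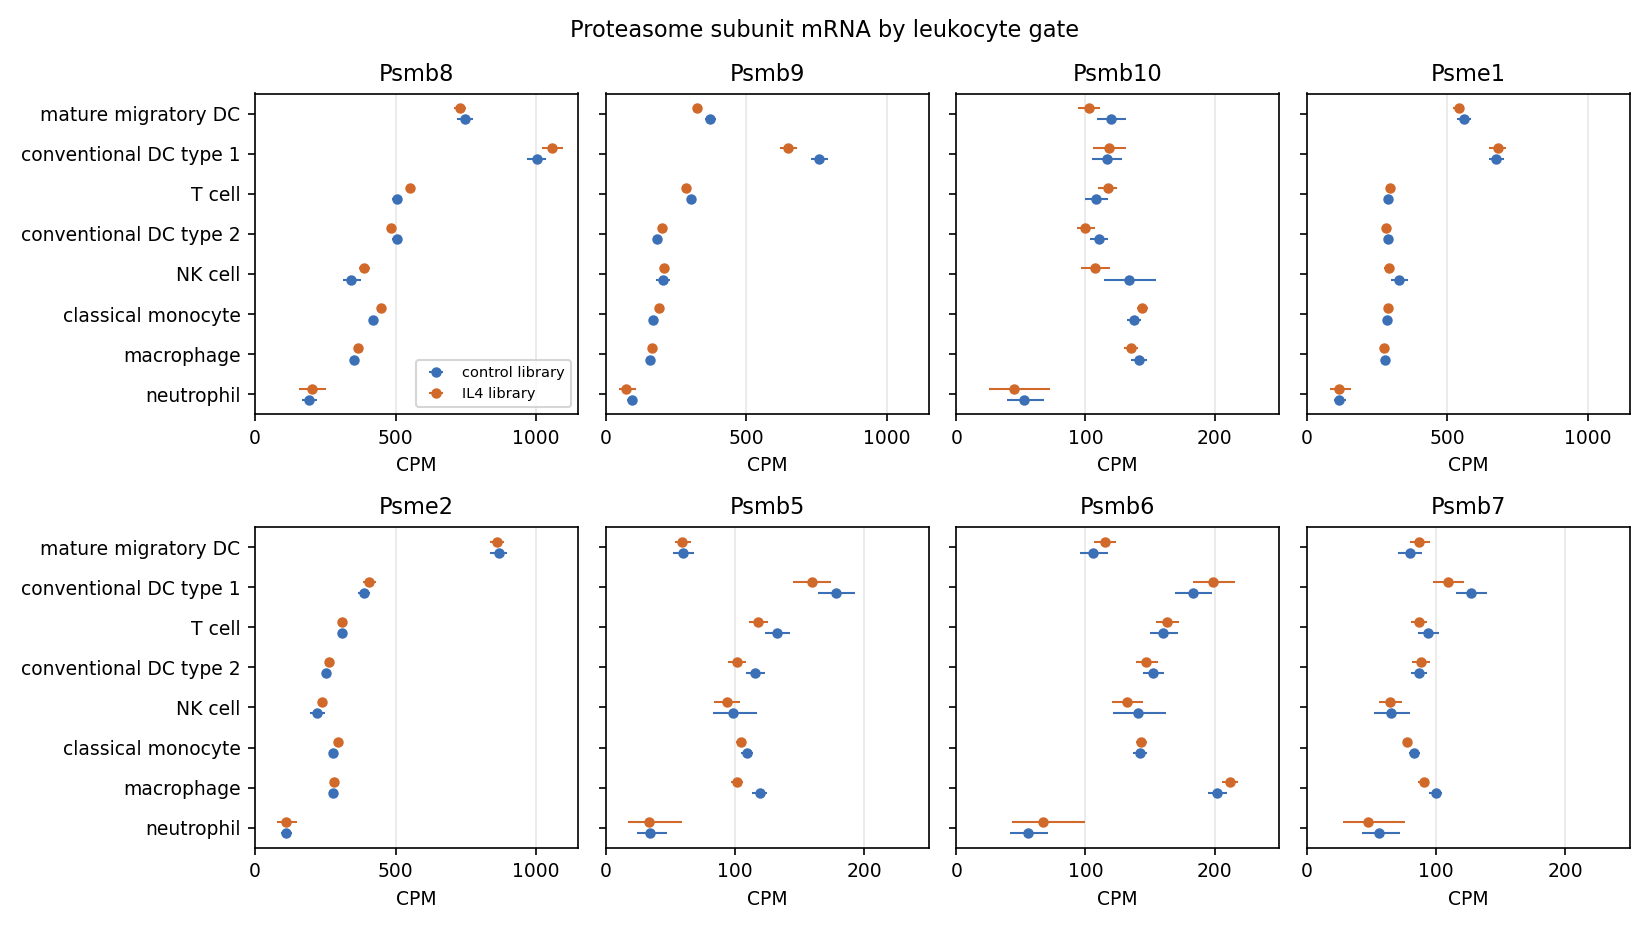
Level of 8 proteasome genes (x axis, CPM of summed UMIs, 2 axis ranges) in each leukocyte gate (y axis) for the control (blue) and IL4 (orange) library, with bars for 95% Poisson intervals of counting error. Psmb8 reached 1003 and 1058 CPM in conventional DC type 1 and Psme2 867 and 861 CPM in mature migratory DC, whereas Psmb10 ranged more narrowly outside neutrophils.

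The constitutive catalytic genes did not share this order. Psmb5, the chymotrypsin-like subunit, was 178 CPM in the control library and 159 CPM in the IL4 library in cDC1, 133 and 118 in T cells, 119 and 102 in macrophages and 60.05 and 59.4 in mature DC. Psmb6, the caspase-like subunit, was highest in macrophages at 202 and 212 CPM, close to cDC1 at 183 and 199 with overlapping intervals, and stood at 106 and 115 in mature DC. Psmb7, the trypsin-like subunit, was 127 and 109 CPM in cDC1, 99.8 and 90.5 in macrophages, 79.6 and 87.2 in mature DC and 64.8 and 64.4 in NK cells. The mature DC gate therefore combined high Psmb8, Psmb9, Psme1 and Psme2 with the lowest Psmb5 and Psmb6 outside neutrophils.

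The immunosubunit share, the percentage of UMIs of the 6 catalytic genes that came from Psmb8, Psmb9 and Psmb10, does not depend on how a gate is scaled. UMIs count tagged molecules and were not divided by length, so the share is compared between gates and is not a ratio of proteins. It was 83.4% in the control library (exact binomial interval 82.4 to 84.4, 4432 immunosubunit and 880 constitutive UMIs) and 81.6% in the IL4 library (80.7 to 82.4) in mature DC, and 79.4% and 79.6% in cDC1. T cells had 70.3% and 72.2%, cDC2 69.2% and 70.0%, NK cells 69.1% and 70.8%, neutrophils 69.8% and 68.3%, monocytes 68.3% and 70.6%, and macrophages 60.7% and 62.4%. Macrophages were lowest in both libraries, with intervals (59.96 to 61.5 and 61.7 to 63.0) below those of every other compared gate except the wide interval of IL4 neutrophils (60.6 to 75.2). Over all kept barcodes the share was 69.5% and 70.7%.

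Each pair contributed differently. Psmb8 made up 74.7% and 78.4% of its pair with Psmb5 in macrophages, 84.9% and 86.9% in cDC1, and 92.5% in mature DC of either library. Psmb9 made up 43.9% and 44.0% of its pair with Psmb6 in macrophages, 80.6% and 76.6% in cDC1, and 77.8% and 73.9% in mature DC. Macrophages were the only compared gate in which Psmb6 outnumbered Psmb9 beyond the counting interval. Psmb10 made up 58.7% and 59.9% of its pair with Psmb7 in macrophages, 47.8% and 51.9% in cDC1, and 60.1% and 54.0% in mature DC, so in that pair no dendritic interval lay above that of macrophages.

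**Figure D2:**
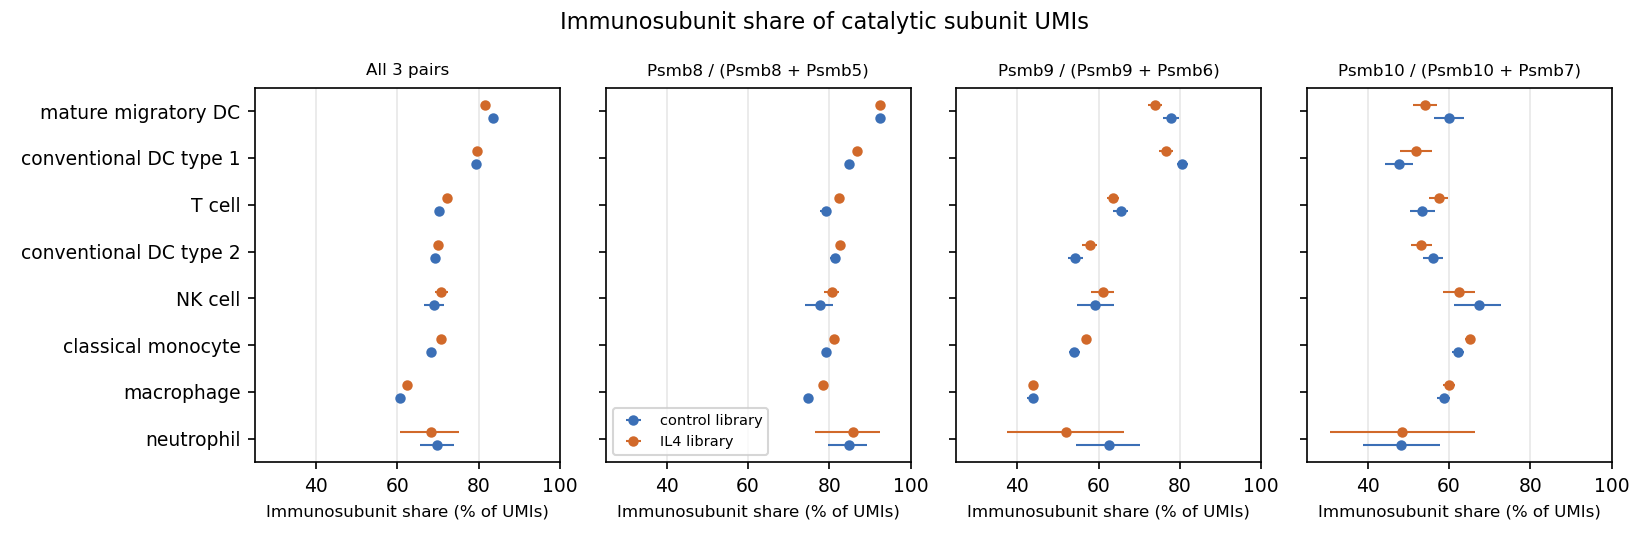
Immunosubunit share (x axis, percentage of UMIs) in each gate (y axis) for all 3 pairs together and for each pair, in the control (blue) and IL4 (orange) library, with exact binomial 95% bars. The Psmb9 panel runs from 43.9% and 44.0% in macrophages to 80.6% and 76.6% in conventional DC type 1, and the Psmb10 panel shows no such separation.

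Against macrophages, the cDC1 share was 17.95 points higher in the mean of the libraries (17.1 to 18.8) and the mature DC share 20.95 points higher (20.1 to 21.8). Depth and cycling differed between these gates. Median UMIs were 22200.5 and 17313 in cDC1, 13748.5 and 10767 in mature DC, and 9385 and 7996 in macrophages. The 8 cycling markers summed to 599 and 446 CPM in cDC1, 77.9 and 87.7 in mature DC, and 88.8 and 93.7 in macrophages. The differences were 18.4 and 21.5 points with cycling barcodes left out, and 18.4 and 22.8 points with every barcode thinned to 2000 UMIs. With clusters in place of gates they were smaller, at 11.8 and 16.2 points.

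The direct comparison of cDC1 with macrophages, gene by gene, was read as a fold past 1.5 in both libraries, a rule of size and not a test. By that rule 5 of 44 members with enough UMIs were higher in cDC1, where 15.4% of all genes were, and 0 were lower, where 17.3% of all genes were. The count of 5 was 8 in Y-only barcodes, 8 without mitochondrial and ribosomal UMIs, 9 thinned and 10 with barcodes weighted equally. The share of all genes was not recomputed in these alternatives, so their counts have no background to be read against. Psmb8 was 2.85-fold higher in the control library (2.73 to 2.98) and 2.88-fold in the IL4 library (2.76 to 3.002). Psmb9 was 4.82-fold (4.56 to 5.10) and 3.91-fold (3.69 to 4.14) higher. Both ratios were thus clear of 1.5 in each library.

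Psme1 was 2.42-fold and 2.46-fold higher in cDC1, and Psme2 was 1.39-fold and 1.44-fold higher, just short of the rule. Psmb10 was slightly lower in cDC1, at 0.822-fold and 0.872-fold. The remaining genes past the rule were Psma1, an alpha ring subunit, at 1.51-fold and 1.59-fold, and the non-subunit Psmc3ip at 2.87-fold and 2.32-fold, from 25 and 19 UMIs in cDC1. Just outside lay Psmb5 (1.496-fold and 1.57-fold), Psma3 of the alpha ring (1.51-fold and 1.46-fold) and the structural subunit Psmb1 (1.47-fold and 1.71-fold). The median log2 ratio was 1.27 in the control library and 1.29 in the IL4 library over the 5 inducible genes, 0.01 and 0.13 over the 31 constitutive genes, and -0.02 and 0.03 over all genes tested.

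In the mature DC gate, 4 members were past 1.5-fold higher than in macrophages, where 13.5% of all genes were, and 11 were past 1.5-fold lower, where 27.8% of all genes were. The higher ones were 4 of the 5 inducible genes. Psme2 was 3.12-fold and 3.06-fold higher, Psmb9 2.36-fold and 1.96-fold, Psmb8 2.12-fold and 1.98-fold, and Psme1 2.01-fold and 1.95-fold. Psmb10 was 0.846-fold and 0.758-fold.

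The 11 lower members came from every part of the particle. Psmb5 was at 0.504-fold and 0.585-fold of the macrophage level, and Psmb6 at 0.525-fold and 0.543-fold. The others were the beta ring subunit Psmb3, the alpha ring subunit Psma4, the ATPases Psmc1, Psmc2 and Psmc5, the regulatory subunits Psmd3, Psmd6 and Psmd12, and the chaperone Psmd9. Lowest of these was Psmd9 in the control library, at 0.379-fold (0.562-fold in the IL4 library), and Psmd3 in the IL4 library, at 0.506-fold (0.503-fold in the control library). The median log2 ratio was 1.08 and 0.97 over the inducible genes and -0.52 and -0.43 over the constitutive genes, beside -0.34 and -0.28 over all genes tested, so the constitutive values lay near the general shift of this gate. In CPM the 5 inducible genes summed to 2666 and 2558 in mature DC and 1207 and 1227 in macrophages, and the 31 constitutive genes to 3072 and 3101 against 4425 and 4066.

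**Figure D3:**
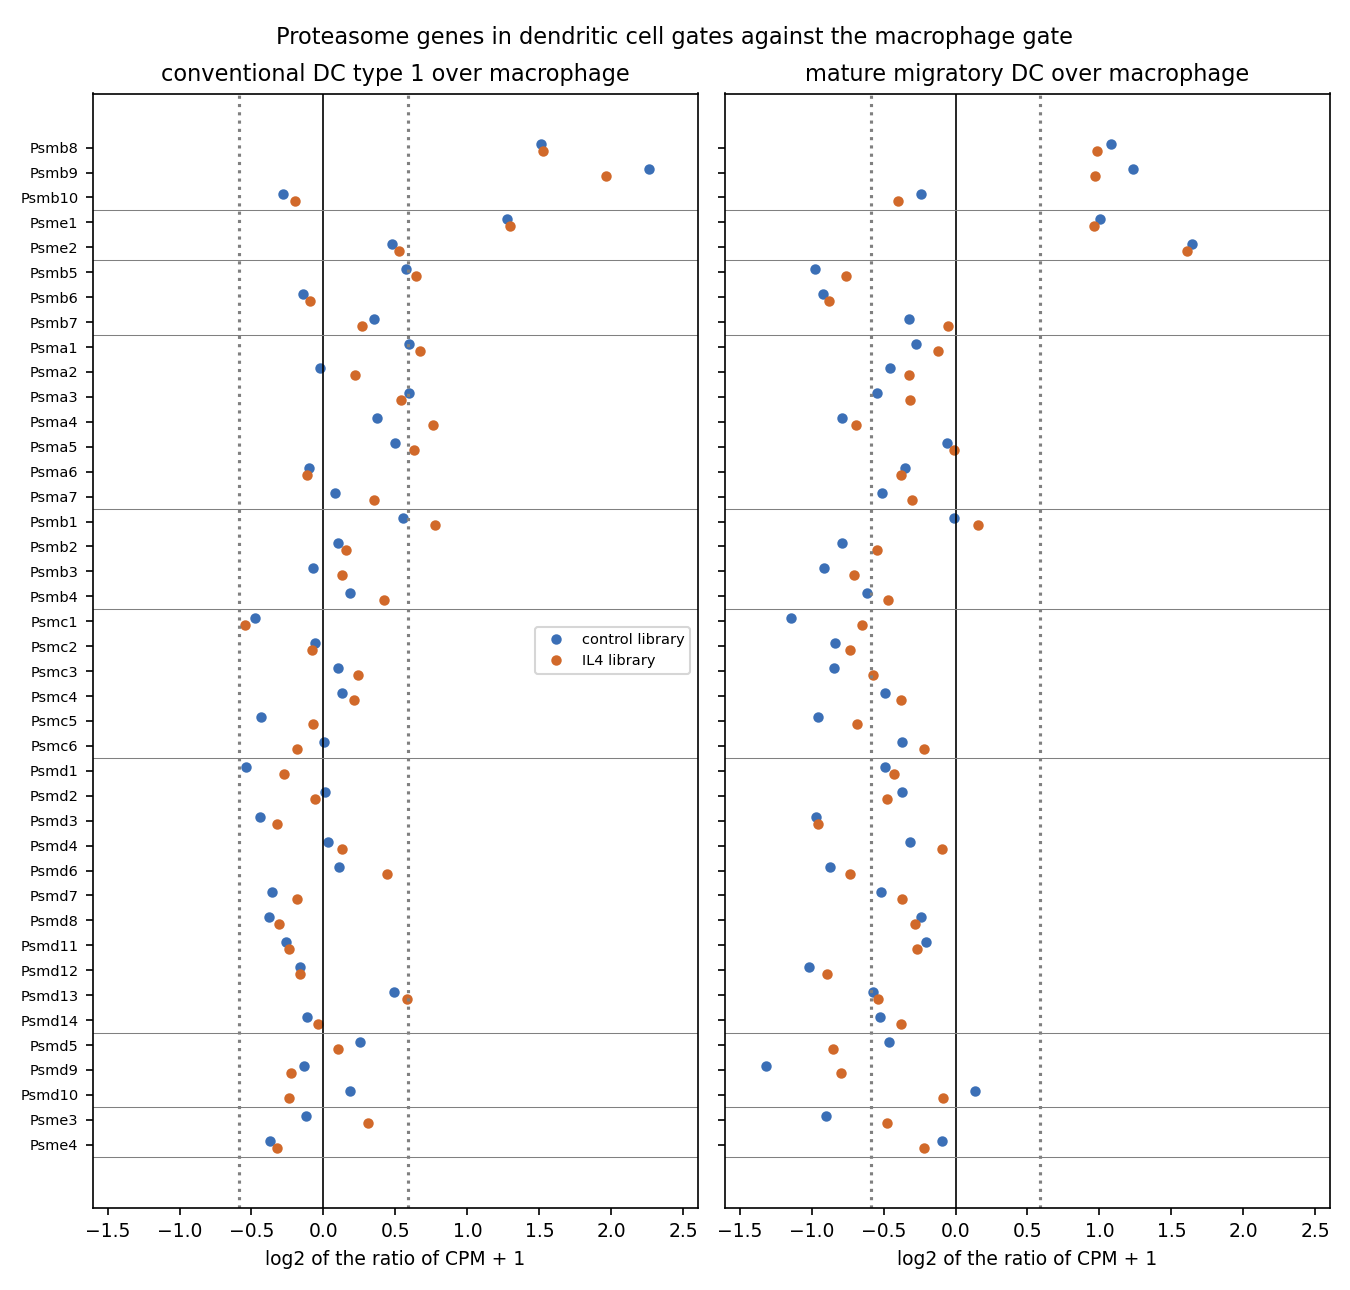
Log2 ratio of CPM plus 1 (x axis) in conventional DC type 1 (left) and mature migratory DC (right) over macrophages for each listed member (y axis, grouped by role), in the control (blue) and IL4 (orange) library. Dotted lines mark 1.5-fold. Psmb8, Psmb9 and Psme1 are past it to the right in both panels and Psme2 in the right one, whereas Psmb5 and Psmb6 are past it to the left in the right panel.

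Fewer members were past the rule in the T cell, NK cell, cDC2 and monocyte gates, whereas most members were past it in neutrophils. In T cells 2 members were past the rule and higher, Psmb9 at 1.93-fold and 1.71-fold and Psmc3ip, where 25.8% of all genes were higher, and 0 were lower, where 15.3% were. In NK cells Psmc3ip was higher, where 24.1% of all genes were, and Psmd8, Psmc5 and Psmc1 of the regulatory particle were lower, where 18.5% were. The ATPase gene Psmc1 was the single member past the rule in cDC2, on the lower side with 10.6% of all genes (0 were higher, where 9.82% were). Psmc3ip was the single one in monocytes, on the lower side with 6.16% of all genes (0 were higher, where 3.01% were). Neutrophils held 39 of 44 members past the rule on the lower side, where 35.2% of all genes were, and 0 on the higher side, where 11.7% were. Their median depth was 2836.5 and 2445.5 UMIs, and the part of that depth in these values was not tested.

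Within the T cell gate, barcodes were split by their own Cd8a, Cd8b1 and Cd4 UMIs. Psmb8 was 523 CPM in the control library and 581 CPM in the IL4 library over 187 and 370 barcodes with CD8 transcripts, 436 and 504 over 59 and 50 barcodes with Cd4, and 345 and 354 over 73 and 155 barcodes with neither. Psmb9 was 313 and 303 CPM in the CD8 subset, 289.8 and 269 in the Cd4 subset and 204 and 167 in barcodes with neither. The CD8 and Cd4 intervals were apart only for Psmb8 in the control library (501 to 546 and 389.5 to 487), and barcodes with neither were lowest for both genes in both libraries. Median UMIs were 19476 and 15972, 8494 and 7528.5, and 6217 and 5316, in the same order as Psmb8, and the part of depth in these gaps was not tested.

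Spread over the 7 non-neutrophil gates, measured as the log2 ratio of the highest to the lowest gate in the mean of the libraries, was widest for Psmb9, Psme2 and Psmb8. Psmb9 had 2.12, Psme2 1.91, Psmb8 1.52 and Psme1 1.28. Among the constitutive genes Psmb5 had the widest spread at 1.48, followed by Psma4 of the alpha ring at 1.31. List medians were 1.52 for the immunosubunits and 1.60 for the PA28 pair, then 0.90 for the constitutive catalytic subunits, 0.83 for the alpha ring, 0.82 for the structural beta subunits, 0.81 for the ATPases and 0.66 for the non-ATPase subunits, beside 1.36 over 6035 genes. The narrowest spreads among the constitutive genes were 0.30 for the ubiquitin receptor Psmd4, from 93.6 CPM in NK cells to 116 in cDC1, and 0.30 for the ATPase Psmc6, from 65.6 CPM in mature DC to 81.2 in T cells.

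Members outside the classical particle were low or flat. Psme3, the nuclear PA28 gamma cap, was highest in T cells at 48.3 CPM in the control library and 41.4 CPM in the IL4 library and lowest in mature DC at 17.6 and 19.9. Psme4, the PA200 cap, ran in the mean of the libraries from cDC1 (72.8 and 79.9 CPM) to monocytes (103 and 111), while single values reached 119 CPM in control NK cells and 61.6 in IL4 neutrophils. Psma8, the testis alpha subunit, did not pass 2.08 CPM in any compared gate, and Psmb11, the subunit of thymic cortical epithelium, had 2 and 1 UMIs over all kept barcodes. Psmc3ip was highest in T cells at 13.8 and 11.8 CPM, and Psme2b stood at 5.03 to 12.4 CPM in the compared gates.

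Partners of antigen processing were read from a list chosen outside the symbol rule. Tap1 was 80.1 CPM in the control library and 94.5 CPM in the IL4 library in macrophages, 241 and 235 in cDC1 and 163 and 174 in mature DC. Tap2, the other transporter chain, was 39.6 and 40.4 CPM, 152 and 150.2, and 108 and 98.5 in the same gates. Both were thus higher in these 2 dendritic gates, as Psmb8 and Psmb9 were, but the list as a whole was not. Of its 10 class I partners, 2 were past 1.5-fold higher in cDC1 than in macrophages and 1 lower, where 15.4% and 17.3% of all genes were. In mature DC 3 were higher and 3 lower, where 13.5% and 27.8% of all genes were. B2m, of the same list, was 2416 and 2536 CPM in macrophages, 1562 and 1497 in cDC1 and 2795 and 2850 in mature DC. Irf1, a transcription factor that activates Psmb9 and Tap1, was 201 and 257 CPM in macrophages, 106 and 139.5 in cDC1 and 416 and 419 in mature DC. The cDC1 gate thus held the highest Psmb8 and Psmb9 beside less Irf1 than macrophages, whereas mature DC were high in all of them.

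Assembly factors split in the same comparison. Pomp, the maturation factor of the core, was 317 and 268 CPM in macrophages, 533 and 469.99 in cDC1 and 208 and 196 in mature DC. Psmg4, a chaperone of the alpha ring, was 92.5 and 91.1 CPM in macrophages, 93.01 and 110.4 in cDC1 and 189 and 194 in mature DC. The chaperone genes Psmg1 and Psmg2 were lower in mature DC, at 3.07 and 3.25 CPM and at 5.87 and 4.80 CPM, against 15.6 and 12.9 and 15.1 and 12.7 CPM in macrophages.

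Over the 16 combinations of 8 gates and 2 libraries, levels of Psmb8 correlated with those of Psmb9 (Pearson's r of log2 CPM plus 1, 0.96), Psme1 (0.95) and Tap1 (0.95), and less with Psmb10 (0.55). The values of Psmb8 with the constitutive Psmb7 (0.81), Psmb5 (0.64) and Psmb6 (0.58) were above that with Psmb10. Neutrophils, low for most members, were among the 8 gates. Psmb10 was nearer to Psmb6 (0.85) and Psmb5 to Psmb6 (0.92). Among 8278 genes outside the rule, those nearest to the summed immunosubunits were Slc46a3 (0.97), Sh3bp1, Acadl, Pcbp2, Rab10, Rtraf, Pafah1b3, Rtcb, Sod1 and Paxbp1 (0.93), and the one nearest to Psme2 was Psmg4 (0.96). These points share their library in sets of 8 and differ in depth, so the values are descriptions.

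Within a gate, the inducible genes were higher in barcodes with more interferon response transcripts. Barcodes of the macrophage, monocyte and cDC2 gates were classed by their UMIs from 20 interferon gamma response genes outside the rule, after thinning to 2000 UMIs, as low (0 or 1), middle (2 to 4) or high (5 or more). In control macrophages Psmb8 was 277, 339.5 and 438 CPM from the low to the high class (413, 466 and 433 barcodes), and in IL4 macrophages 299, 359 and 407 CPM (368, 712 and 911 barcodes). Psmb9 was 109, 154 and 211 CPM in the control library and 120.3, 156 and 195 in the IL4 library. Neighbouring classes did not overlap in their intervals for either gene in either library.

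The same held in part for the others. Psmb10 was 118, 132 and 174 CPM in control macrophages and 104, 128 and 154 in IL4 macrophages, Psme1 239, 279.9 and 317 and 221, 277 and 302, and Psme2 228, 273 and 333 and 250.1, 276 and 302. Psmb5 was 124, 123 and 111 CPM in the control library and 108, 106 and 96.6 in the IL4 library, and the 31 constitutive genes summed to 4429, 4545 and 4314 and to 4282, 4141 and 3939 CPM. In macrophages the inducible genes were thus higher in the high class in both libraries, and the constitutive sum was not. Median UMIs ran from 10483 in the low to 9866 in the high class of control macrophages, and from 8818 to 8260 in IL4 macrophages.

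In monocytes Psmb8, Psmb9 and Psmb10 had the same order. Psmb8 was 314, 396 and 549 CPM in the control library (636, 729 and 646 barcodes) and 370.2, 419 and 514 in the IL4 library (719, 1196 and 1407 barcodes). Psmb9 was 114, 155 and 235 CPM and 141, 174 and 228, and Psmb10 was 104, 129.6 and 179.99 CPM and 125, 129 and 165. In cDC2 the order of the immunosubunits was less even. There Psmb9 was 151, 172 and 230.01 CPM in the control library and 151, 180.2 and 257 in the IL4 library. Its low and middle classes overlapped in both libraries. Psmb8 was 444.3, 501 and 574 CPM and 443, 448 and 552, so the low and middle IL4 classes overlapped. Psmb10 was 94.3, 106 and 135 CPM and 96.6, 94.5 and 108, with overlapping intervals in all 3 IL4 classes and in the low and middle control classes. When macrophages were classed by the type I interferon genes instead, Psmb9 was 118, 161 and 217 CPM and 127, 153 and 195, so these transcripts do not tell the types of interferon apart.

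**Figure D4:**
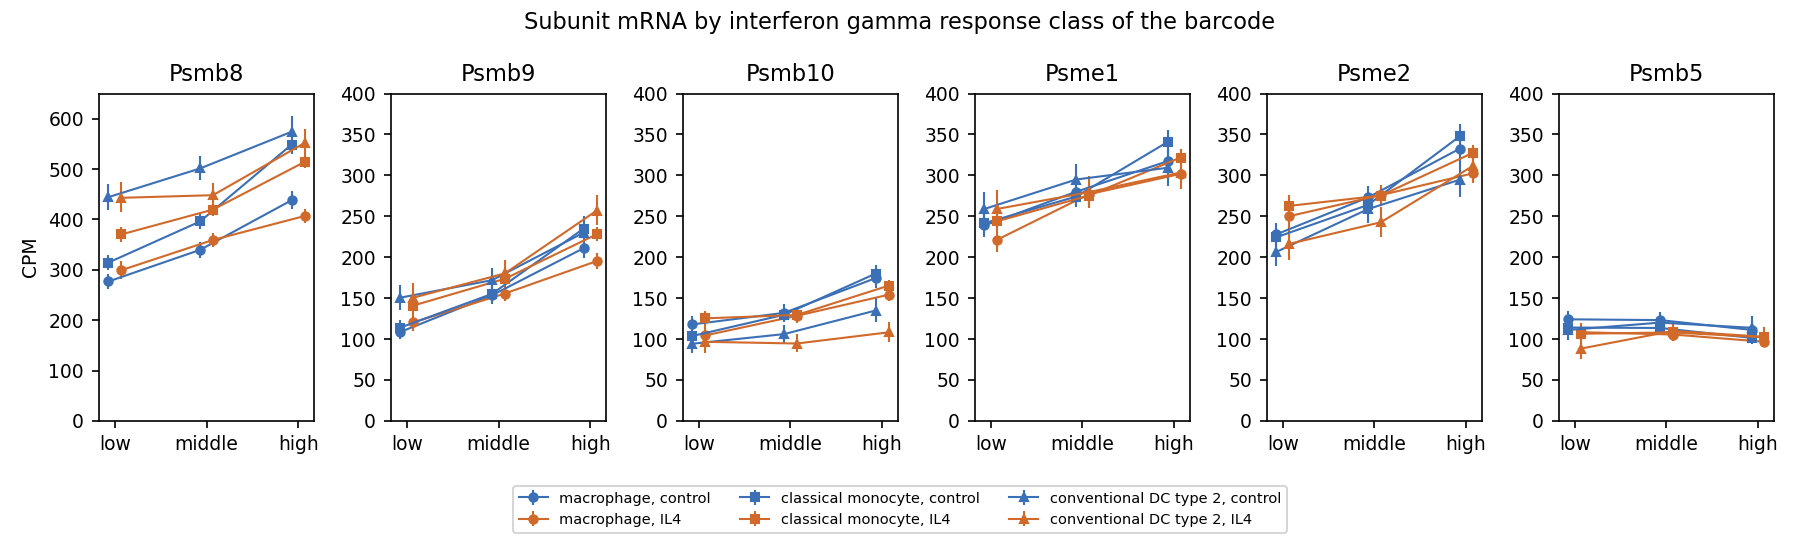
Level (y axis, CPM, first panel on its own axis range) of 5 inducible genes and Psmb5 in barcodes of the low, middle and high interferon gamma class (x axis), by gate (marker shape) and library (control blue, IL4 orange), with 95% Poisson bars of counting error. Psmb9 in control macrophages climbs from 109 to 211 CPM, whereas Psmb5 stays between 111 and 124 CPM.

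The comparison of libraries asks whether transfer of IL-4-treated BMDMs went with another proteasome profile in each leukocyte type. In macrophages 0 of 44 members were past 1.5-fold higher in the IL4 library, where 3.55% of all genes were, and 1 was past it lower, where 3.91% were. That member was Psma8, with 31 control and 16 IL4 UMIs (2.08 and 0.832 CPM). Psmb8 was 351 CPM in the control library and 368 CPM in the IL4 library, Psmb9 158 and 166, Psmb10 142 and 135, Psme1 278 and 277, and Psme2 278 and 282. The 5 inducible genes summed to 1207 and 1227 CPM, a log2 ratio of 0.02 (-0.00 to 0.05). This ratio was 0.14 in barcodes with Xist but no Y-linked UMIs and -0.24 in those with Y-linked but no Xist UMIs.

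The constitutive genes were slightly lower in IL4 macrophages as a group. Of 31, 28 had a ratio under 1 and 19 had an interval wholly under 1, while 0 had one wholly above 1. The matching shares of all genes are not given here, so these counts only describe the list. Its sum was 4425 CPM in the control library and 4066 CPM in the IL4 library, a log2 ratio of -0.12 (-0.14 to -0.11). The median over the list was -0.13, beside -0.08 over all genes tested, so most of this offset was shared by the gate. Outside the catalytic and PA28 genes and the other activators, the lowest ratios among members with at least 50 UMIs were those of Psmd6, a lid subunit (60.3 and 49.7 CPM, 0.825-fold), the ATPase Psmc5 (79.6 and 66.8 CPM, 0.839-fold) and Psma4 (186 and 158 CPM, 0.853-fold). Psmb5, at 119 and 102 CPM (0.852-fold), lay beside them. The highest of the same members were Psmc3ip (2.54 and 2.81 CPM), Psmd9 (28.0 and 29.8 CPM) and the chaperone Psmd10 (23.3 and 24.5 CPM), each with an interval that included 1.

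**Figure D5:**
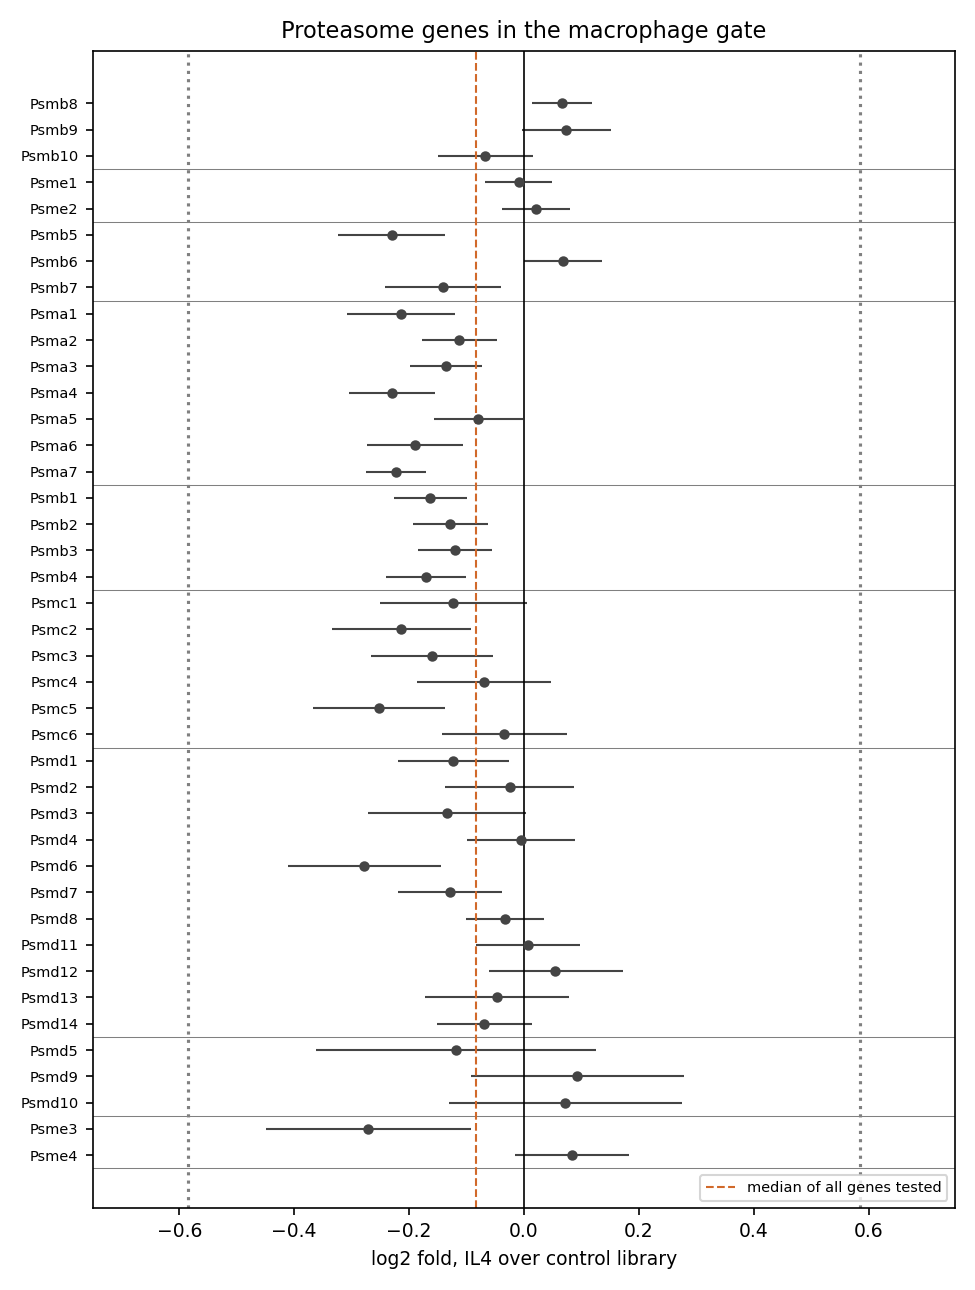
Log2 fold, IL4 over control library (x axis), of each listed member (y axis, grouped by role) in the macrophage gate, with exact binomial 95% bars of counting error. Dotted lines mark 1.5-fold and the dashed line the median of all genes tested (-0.08). Points of the alpha ring and structural beta subunits lie left of 0 and all shown points lie within the dotted lines.

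The immunosubunit share in macrophages was 1.64 points higher in the IL4 library (0.630 to 2.65), from a gap of 3.68 points (2.35 to 5.02) for the pair of Psmb8 and Psmb5, with gaps of 0.103 and 1.24 points for the other pairs. This value depended on which barcodes were read. Among the 775 control and 1634 IL4 macrophage barcodes with Xist but no Y-linked UMIs it was 3.58 points, and among the 358 and 181 with Y-linked but no Xist UMIs it was -3.61 points. The libraries thus held cells of both sexes in unequal numbers, and sex, origin and treatment cannot be told apart here.

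Monocytes had a share 2.31 points higher in the IL4 library (1.5004 to 3.12) and T cells 1.87 points higher (0.527 to 3.23). It was 1.88 points lower in mature DC (the difference of IL4 minus control was -1.88, with an interval of -3.19 to -0.559). In cDC1 the difference was 0.236 points (-1.08 to 1.55), in cDC2 0.839 (-0.498 to 2.17), in NK cells 1.72 (-1.20 to 4.68) and in neutrophils -1.56 (-10.2 to 6.58). In cDC1 the pairs moved apart, with Psmb8 1.99 points higher (0.403 to 3.57) and Psmb9 lower, at -4.03 points (-6.22 to -1.86).

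Few members were past 1.5-fold between libraries in other gates, by the ratio of CPM plus 1. The count was 0 in monocytes, where 2.29% of all genes were higher and 1.72% lower, 0 in cDC1 (4.05% and 7.31%), 0 in cDC2 (2.57% and 6.03%) and 0 in T cells (3.44% and 3.67%). Without the added 1, Psmc3ip was 1.84-fold higher in monocytes (1.02 to 3.50), at 0.831 and 1.53 CPM. In NK cells 1 member was higher (Psmc3ip, 4.42 and 8.02 CPM), where 7.04% of all genes were, and 0 were lower, where 7.07% were. In mature DC 1 was higher, Psmd9 at 10.6 and 16.8 CPM (1.58-fold, 1.08 to 2.36), where 4.81% of all genes were, and 0 were lower, where 5.71% were. Neutrophils had 1 higher (Psme3, 16 and 9 UMIs, where 10.5% of all genes were) and 8 lower (16.8%) among 38 members, at 114 IL4 barcodes.

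Outside the catalytic, PA28, Psme3 and Psme4 genes, the members with the lowest and highest ratios differed between gates. In neutrophils Psma1 was 56.2 CPM in the control library and 16.8 CPM in the IL4 library (0.299-fold, 0.106 to 0.691). In monocytes the ATPase Psmc2 was 50.2 CPM in the control library and 42.6 CPM in the IL4 library, and Psma1 was 104 and 90.2. In cDC2 Psmc2 was 64.9 and 49.6 CPM and Psma4 197 and 163. In T cells Psmd3, a lid subunit, was 61.0 and 43.9 CPM (0.720-fold) and Psma6 of the alpha ring 139 and 108 (0.776-fold). Among these other members Psmc2 was in the 3 lowest by ratio in the monocyte, cDC1, cDC2, T cell and NK cell gates. At the other end Psmd9 was in the 3 highest of them in the macrophage, monocyte, cDC2, mature DC and T cell gates. These gates share the same pair of libraries, so they are not independent repeats.

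The number of the 31 constitutive genes with a lower value in the IL4 library differed between gates. No matching share of all genes is given for these counts. The ratio was under 1 for 27 of 31 in cDC2 and 27 of 31 in T cells, with 10 and 13 intervals wholly under 1. It was under 1 for 20 of 31 in monocytes, 15 in mature DC, 15 in NK cells and 12 in cDC1. The median log2 ratio over the list was -0.09 in cDC2, -0.11 in T cells and -0.03 in monocytes, beside -0.08, -0.03 and -0.02 over all genes tested in these gates.

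Other genes of the pathway were read in macrophages from lists chosen by function. Of 21 assembly and accessory genes measured, 0 were past 1.5-fold, with a median log2 ratio of -0.16. Among those with the largest ratios were Ubqln1, a ubiquitin shuttle (53.6 and 41.4 CPM), Ddi2, the protease that activates NRF1 (82.7 and 64.3 CPM), and the core chaperone Psmg3 (28.5 and 22.9 CPM). Of 10 partners of class I presentation 0 were past the rule, with a median of 0.05. The class I heavy chain H2-K1 was 1157 and 1462 CPM, the trimming peptidase Erap1 20.3 and 13.5, and the chaperones Canx and Pdia3 279.6 and 227 and 400.01 and 326.

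The interferon lists were read beside the inducible subunits. Of 16 type I interferon response genes measured, 10 were past 1.5-fold higher in IL4 macrophages, where 3.55% of all genes were, and 0 were lower, and the median log2 ratio was 0.73. Among them Isg15, a ubiquitin-like modifier, was 359 and 727 CPM, and Ifit3 38.2 and 88.5. Of 19 interferon gamma response genes 1 was higher (the chemokine Cxcl10, 699.5 and 1173 CPM) and 1 lower (Cxcl9, 251 and 151 CPM), shares near those of all genes, with a median of 0.06. T cells had 11 of 16 type I genes higher (median 0.65), where 3.44% of all genes were, while Psmb8 stood at 504 and 552 CPM. In cDC2, 6 of 19 interferon gamma genes were higher (median 0.48), where 2.57% of all genes were, while the 5 inducible subunits had a median of -0.03.

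Genes of the dissociation stress list also differed in macrophages, in both directions. Of 13 such genes 1 was past 1.5-fold higher in the IL4 library, where 3.55% of all genes were, and 3 were lower, where 3.91% were. The heat shock genes Hspa1a and Hspa1b were 1706 and 916 CPM and 1064 and 511 CPM, Hsp90aa1 was 1380.2 and 786, and the immediate early gene Ier2 was 273 and 456. Summed T cell markers in the macrophage gate were 32.5 and 50.8 CPM, NK markers 22.9 and 57.8, and melanoma markers 231 and 213. The part of any of these in the proteasome values was not tested.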

How the data were processed

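Each library came as a deposited matrix of raw UMI counts (genes by barcodes), produced by Cell Ranger 7.2.0 with mm10 per the submitters' processing notes. Which annotation release and strand setting were used is not given in these sources. The matrices held 8994 control and 13873 IL4 barcodes with 95499107 and 133151428 UMIs.

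Barcodes were kept at 500 UMIs or more, 250 genes or more and a mitochondrial share of 10% or less. A barcode entered a gate when the UMIs per 10000 of that type's markers passed a limit and the score, relative to its limit, was at least 2 times that of every other type. Limits were set after the marker distributions had been seen. No doublet caller was run. Mixed barcodes were set apart, and leaving out the highest 5% of UMIs was an alternative. The cDC1 marker Irf8 is also in the interferon gamma list.

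UMIs were summed per gate and library and divided by the gate's total (CPM). Levels carry exact Poisson intervals, shares exact Clopper-Pearson intervals, share differences Newcombe intervals, and folds the exact binomial interval of the UMI split, at 95%. Log2 ratios used CPM plus 1. Genes needed at least 20 UMIs over the samples compared. A fold of 1.5 was a rule of size, since 1 library per group allows no test. All genes passing the minimum gave the background percentages. Named were the catalytic and PA28 genes, Psme3, Psme4, Psma8 and Psmb11, the 3 highest and 3 lowest other members per gate at 50 UMIs or more, and up to 4 genes per pathway list by absolute log2 ratio in macrophages. Others past a threshold, and those with the widest or narrowest spread, were named after their values were seen, as were the partners and assembly factors described across gates. The genes most alike were the 10 with the highest correlation among those reaching 20 CPM in a gate. Some genes that these rules pick are not reported here. Members and lists were chosen with earlier results of these data known.

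Gene positions are from GENCODE M21 (GRCm38, the mm10 assembly). The fold, log2 ratio and share difference calculations were tested on simulated counts that held counting error only. Filtering, gating, clustering and the other steps were not tested in this way. Python 3.11.15, numpy 2.4.6, scipy 1.17.1, pandas 2.3.3, scanpy 1.11.5, python-igraph 0.11.9 and matplotlib 3.10.9 were used. Alternatives covered gate limits, Leiden clusters, filters, cycling, sex-linked UMIs, scaling, weighting, pseudocount, minimum counts, depth and multiplets.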

Additional observations from a re-analysis of the deposited data

Results flagged for a closer look

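The immunosubunit share went opposite ways between the libraries in a pair of gates. It was 1.64 points higher in the IL4 library in macrophages, whereas the IL4 minus control difference was -1.88 points in mature migratory dendritic cells. The difference between these gates was not tested, since each group is 1 library. In macrophages the value came mainly from Psmb8 against Psmb5 (3.68 points), and in mature dendritic cells from Psmb9 against Psmb6 (-3.92 points) and Psmb10 against Psmb7 (-6.06 points), with -0.0902 points for Psmb8 against Psmb5.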

How the results depend on the processing

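Thinning, leaving out the deepest 5% of barcodes and every alternative for the counts against macrophages were chosen after seeing the data. The cDC1 minus macrophage share (17.95 points) was 11.8 with clusters, in which cDC1 were 2 clusters including a cycling one, and 19.8 as a mean over barcodes. The mature DC minus macrophage share (20.95) was 16.2 with clusters, 22.5 Xist-only, 19.7 Y-only, 22.1 as a mean over barcodes and 22.8 thinned. The macrophage IL4 minus control share (1.64) was 3.58 in Xist-only barcodes, -3.61 Y-only, with its sign turned, and 0.536 thinned. That of mature DC ranged from -2.84 to -0.974 over 11 alternatives. The log2 ratio of the inducible sum in macrophages (0.02) was 0.0524 with doubled limits, 0.0568 with clusters, 0.14 Xist-only, -0.24 Y-only, -0.0208 with barcodes weighted equally, 0.11 centred on the median gene and -0.0302 without the deepest 5%, so its sign, not called at 0.02, turned in 3 of these. The constitutive sum (-0.12) was -0.10 Y-only, -0.14 without mitochondrial and ribosomal UMIs, -0.0385 centred and -0.0837 thinned. The macrophage count of 1 member (Psma8) was 0 with clusters, Xist-only, Y-only, equal weights, at least 100 UMIs and thinning. The count higher in cDC1 (5) was 8 Y-only (43 and 16 barcodes), 8 without mitochondrial and ribosomal UMIs, 10 with equal weights and 9 thinned. The count lower in mature DC (11) was 7 with equal weights, and the count higher (4) was 4 in all 14 alternatives. The cause of these changes was not tested. For single genes, 221 values moved by less than their counting interval and 87 by more, and 0 reversed. No paired analysis was possible because each group holds 1 library. Depth limits neutrophils, NK cells and members under about 20 UMIs.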
